A study of Mus musculus with 10 samples.

Results

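Npas3, Csmd2, Xylt1, Nav2, Ksr1 and Dock1 are 6 long mouse genes, out of 21883 protein-coding genes examined, in which H3K27ac peak calling gave many peaks after crotonate that were missing from the control list. They were selected on that measured number of peaks, so the H3K27ac peak counts, the H3K27ac covered lengths and the comparison of both H3K27ac lists are descriptions of the choice and not evidence for it. The other marks, H3K9cr, H3K4me3 and H3K27me3, played no part in the choice. The number of such peaks was 45 in Npas3, 38 in Csmd2, 38 in Xylt1, 36 in Nav2, 31 in Ksr1 and 30 in Dock1. The choice has no sharp edge, because Msi2 and Zmiz1 also held 30 and are not among the 6, and the next genes, Cdh4, Oxr1 and Trio, held 28 each.

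The cells were cultured forebrain neural stem/progenitor cells of E13.5 mice, grown with epidermal and fibroblast growth factor at 20 ng/ml each and used at passage 2 to 3. Both groups had the same cells and medium, and no genetic change was labelled in either. The control group received water and the crotonate group 10 mM crotonate, each for 24 h. Crotonate is a small fatty acid from which cells can make crotonyl-CoA. Native chromatin immunoprecipitation and sequencing gave 8 peak lists, for H3K4me3, H3K9cr (crotonylated lysine 9), H3K27ac and H3K27me3 in each group. Each list came from 1 library, so no difference below has a replicate check and no test between the groups was possible. For H3K4me3 and H3K27me3 the labels name different antibody vendors in the control and the crotonate library, with the same catalogue numbers. For H3K9cr and H3K27ac they name a vendor in the control library only. Whether the antibodies differed is therefore not known, and such a difference could not be told apart from the treatment.

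H3K4me3 marks the start sites of active and poised genes. H3K27ac marks active promoters and enhancers, and in long neural genes many enhancers lie within the introns of the gene itself. H3K9cr is found at active promoters and enhancers as well and draws on crotonyl-CoA, whereas H3K27me3 is laid down by Polycomb complexes at silent developmental genes. As a check of the culture, H3K4me3 was called within 1 kb of an annotated end of 9 of 10 neural stem and progenitor markers in both groups (Msi1 lacked it) and of 5 of 6 neuronal markers. It was called at 1 of 6 leukocyte, 1 of 5 endothelial and 1 of 4 red blood cell markers, and at 3 of 4 mesenchymal markers in control and 2 of 4 after crotonate. In control H3K27ac was called at 9 of 10 stem and progenitor, 3 of 6 neuronal and 2 of 4 mesenchymal markers. H3K27me3 was called there at 5 of 10, 5 of 6 and 3 of 4, so H3K4me3 at a marker does not by itself show an active gene. A peak shows that a site was marked in some cells of the culture and not in how many.

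Start-site sequences show how differently marked positions within 1 gene can look. The sequences are from RefSeq (GRCm38.p6), and 4 of the 6 genes had an entry, with 6 start sites in all. The windows below are the 250 bases before each of 2 start sites of Nav2 and of Ksr1, read 5′ to 3′ on the strand of the gene, with every CG dinucleotide in capitals. The plus-strand windows of Nav2 are chr7:48958823-48959072 and chr7:49245939-49246188. The minus-strand windows of Ksr1 are chr11:79146474-79146723 and chr11:79059837-79060086.
Nav2 outer start site: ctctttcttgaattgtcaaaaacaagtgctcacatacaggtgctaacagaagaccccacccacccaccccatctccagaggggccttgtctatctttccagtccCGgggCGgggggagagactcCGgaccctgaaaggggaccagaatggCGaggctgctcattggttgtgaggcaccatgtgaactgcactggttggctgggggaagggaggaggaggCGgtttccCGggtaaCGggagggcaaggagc
Nav2 inner start site: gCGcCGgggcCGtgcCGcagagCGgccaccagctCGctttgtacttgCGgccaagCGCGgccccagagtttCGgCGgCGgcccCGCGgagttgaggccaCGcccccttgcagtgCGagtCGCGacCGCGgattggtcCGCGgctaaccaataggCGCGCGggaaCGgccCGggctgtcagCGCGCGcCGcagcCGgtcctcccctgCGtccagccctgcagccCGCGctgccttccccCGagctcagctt
Ksr1 outer start site: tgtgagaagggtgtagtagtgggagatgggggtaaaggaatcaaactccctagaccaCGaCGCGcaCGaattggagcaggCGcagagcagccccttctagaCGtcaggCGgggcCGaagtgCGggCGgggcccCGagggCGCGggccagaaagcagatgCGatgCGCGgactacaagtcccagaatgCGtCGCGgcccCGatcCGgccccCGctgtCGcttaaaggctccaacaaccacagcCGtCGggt
Ksr1 inner start site: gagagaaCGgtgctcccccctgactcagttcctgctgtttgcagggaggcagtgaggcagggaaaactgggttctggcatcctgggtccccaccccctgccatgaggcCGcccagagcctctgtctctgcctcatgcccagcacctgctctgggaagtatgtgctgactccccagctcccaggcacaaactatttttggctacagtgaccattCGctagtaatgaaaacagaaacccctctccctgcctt

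The inner Nav2 window, 287 kb into the gene, held 36 CG, the outer window held 7, and both lay under peaks of H3K4me3, H3K9cr and H3K27ac in both groups. The outer Ksr1 window held 25 CG and lay under the same 3 marks in both groups. The inner Ksr1 window, 86.7 kb into the gene, held 3 CG and met only a control H3K27ac peak of 3.16-fold enrichment, with the nearest H3K4me3 84.2 kb away. The start-site windows of Npas3 and Dock1 held 15 and 29 CG. Over the 32851 start sites of the table the median was 6, and the 10th and 90th percentiles were 1 and 25. The count of CG is a description of the letters and not a measure of methylation.

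A peak is called crotonate-only when no control peak of the same mark overlapped it by 1 bp or more, control-only in the reverse case, and shared otherwise. Over the 6 genes, which span 2979 kb, the control list held 276 H3K27ac peaks and the crotonate list 423. Of the crotonate peaks, 218 (51.5%, exact 95% interval 46.7 to 56.4) were crotonate-only, and 84 (30.4%, 25.1 to 36.2) of the control peaks were control-only. In all protein-coding genes 31.5% of the crotonate peaks were crotonate-only and 22.8% of the control peaks control-only, and over the whole lists 30.1% and 25.3%. All intervals here cover counting error only and treat neighbouring peaks as independent. The length under H3K27ac peaks was much more alike than the number, at 329.5 kb in control and 353.9 kb after crotonate. In 5 of the 6 genes the covered length was higher after crotonate, and in Npas3 it was lower. Of the other genes of like length (133 to 824 kb) with an H3K27ac peak, 30.6% had more covered length after crotonate and 69.4% less. With the crotonate list cut to the number of peaks in the control list, strongest first, the difference turned from 24.4 kb to -10.7 kb, so its sign over the 6 genes depends on the length of the list.

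**Figure D1:**
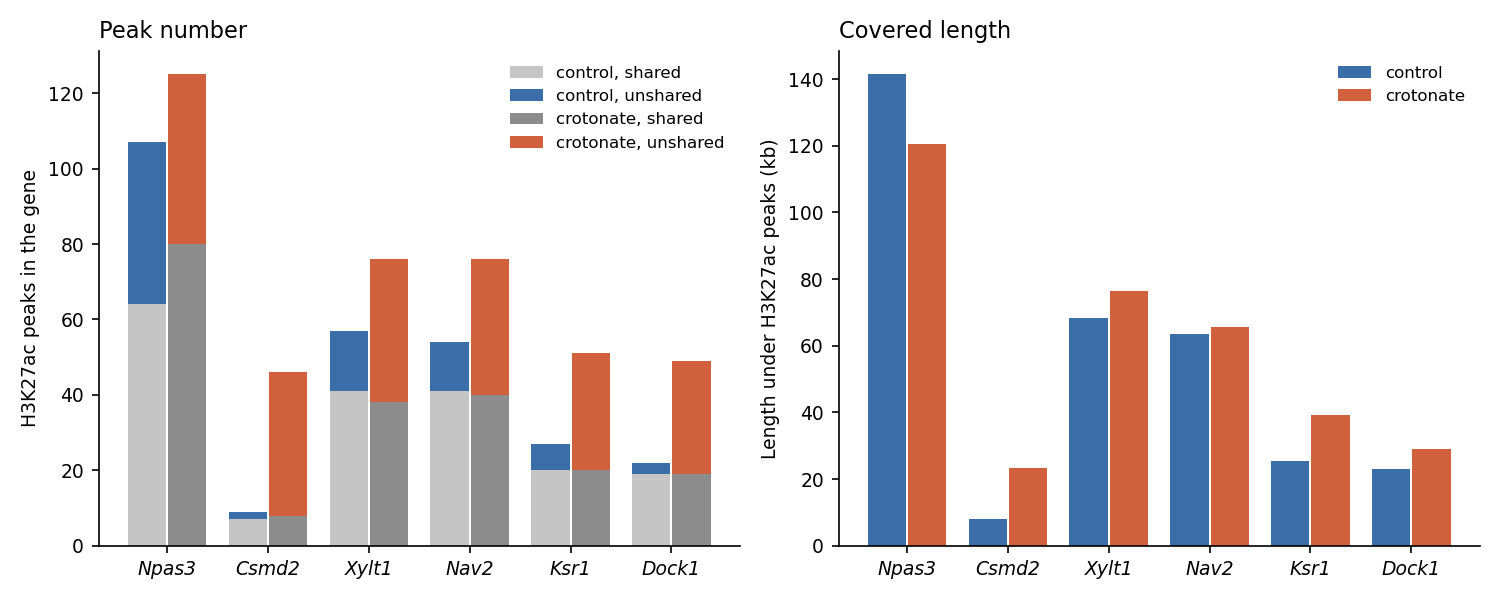
Left, number of H3K27ac peaks in each of the 6 genes in the control and the crotonate list, split into shared and unshared peaks. Right, length under these peaks in kb. The crotonate-only part is 30 to 45 peaks in every gene, while the covered length ranges from 2.94 times the control value in Csmd2 to 0.852 times in Npas3.

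Positions below are distances from the annotated gene end that carried H3K4me3 in both lists. This is the lower end for all but Ksr1, whose upper end was marked. For Npas3, Nav2, Ksr1 and Dock1 it is also the end at which the strand in the table puts the start. The gene table has gene ends only, so whether a peak lies in an exon or an intron was not analysed here.

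**Figure D2:**
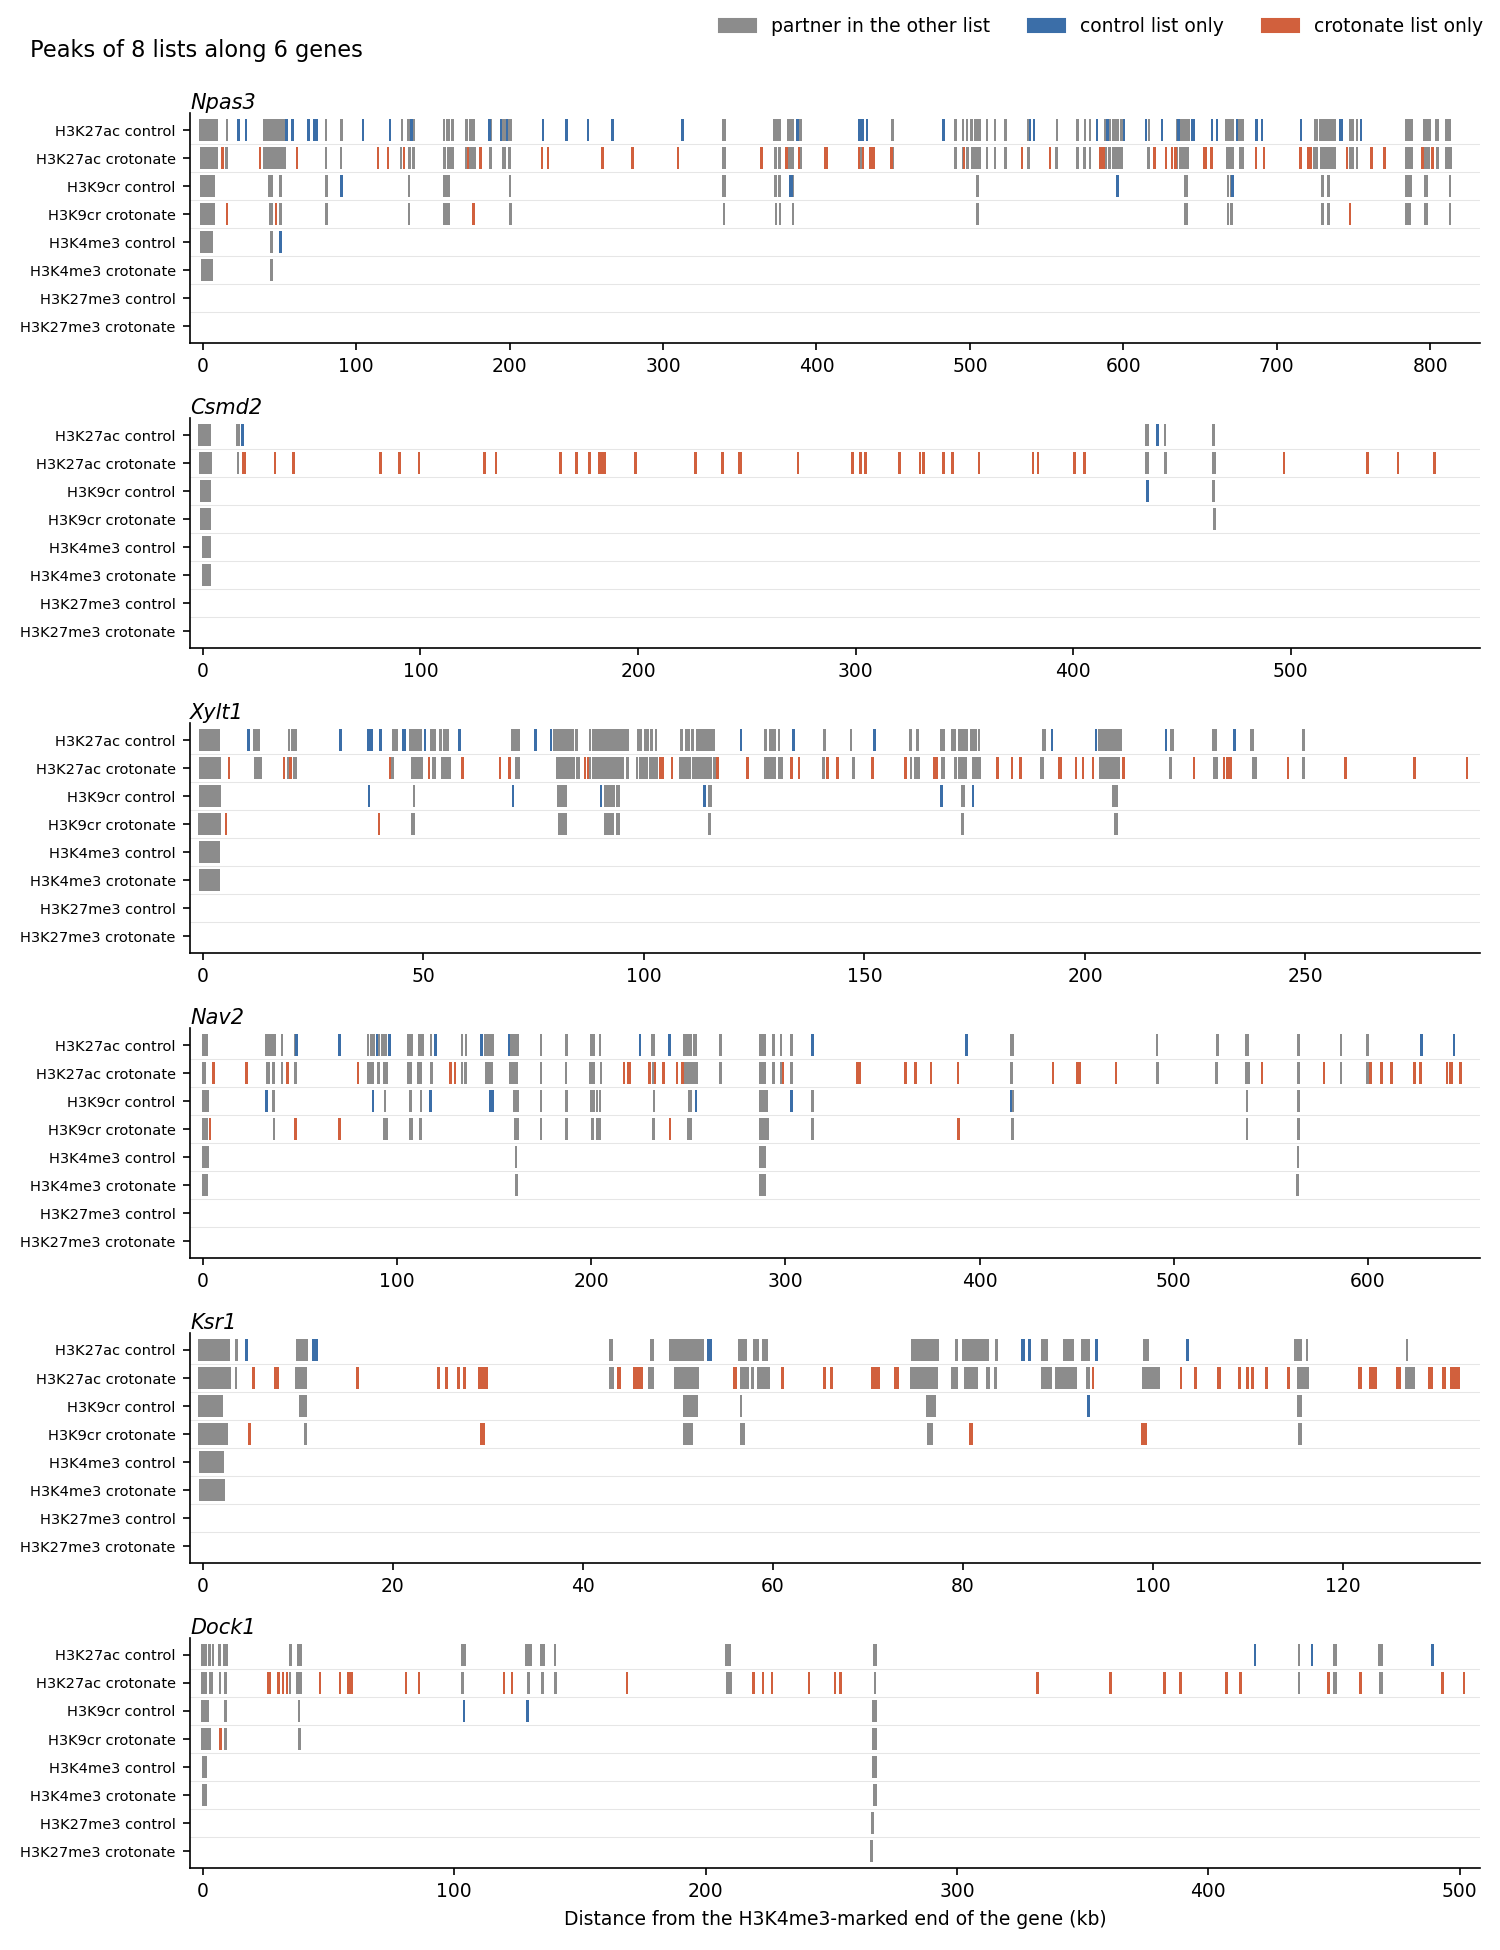
Peaks of the 4 marks in control and crotonate along each gene, by distance from the H3K4me3-marked end in kb. Grey bars have a partner in the other list, blue bars are control-only and orange bars crotonate-only, and very narrow peaks are drawn at a minimum width. Csmd2 has orange bars over a stretch that is empty in the control row, and Npas3 has blue and orange bars side by side along its length.

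Csmd2 (chr4:127986505-128567660, 581 kb) encodes a large membrane protein with CUB and sushi domains. It held 9 control peaks, which all lay within the first 18.4 kb or between 434 and 465 kb, and 46 crotonate peaks. The covered length was 7.90 kb in control and 23.2 kb after crotonate, the largest difference among the 1594 protein-coding genes between the shortest and the longest of the 6. Between those places lay 415 kb with no control H3K27ac peak (chr4:128004898-128420045). The crotonate list had 35 peaks there, of which 34 were crotonate-only and the other reached in from the edge, and together they covered 14.4 kb, or a small part of the stretch. None of the other 3 marks had a peak there in either list. The strongest of all 218 crotonate-only peaks was in this stretch, at chr4:128317610-128318134, with a pileup (fragments stacked at the summit) of 25, a fold enrichment over local background of 7.07, and 102 kb to the nearest control peak. The longest stretch without a crotonate H3K27ac peak in Csmd2 was 39.5 kb. The peaks were spread and not piled up: they formed 5 groups of 3 or more at up to 10 kb spacing, the largest with 6 peaks over 20.8 kb at 164 to 185 kb. With equal numbers of peaks in both lists Csmd2 still had 29 crotonate-only peaks and 12.8 kb more covered length after crotonate, but with the stronger 50% of each list it had 8 such peaks and 2.67 kb more. Of its stronger peaks, those in the upper 50% of the crotonate list, 6 had no partner anywhere in the control list.

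Hmgb4, a short gene for a high mobility group protein that lies within Csmd2, had a crotonate-only peak of 2.90-fold enrichment at its lower end, 274 kb into Csmd2, and no control peak. Csmd2os, a noncoding gene within the same stretch, overlapped 3 crotonate-only peaks. CK137956, a protein-coding gene that overlaps the marked end, had all 3 active marks at its upper end in both groups, so that end cannot be assigned to Csmd2 alone.

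Ksr1 (chr11:79013440-79146533, 133 kb) encodes a scaffold protein of the Raf, MEK and ERK kinase cascade. It was the shortest of the 6 and the densest, with 27 control and 51 crotonate peaks and 31 crotonate-only ones, or 23.3 per 100 kb. The covered length was 25.4 kb in control and 39.2 kb after crotonate. All 31 crotonate-only peaks fell into 3 groups at up to 10 kb spacing. The first, of 8 peaks, lay between 5.15 and 29.99 kb, the second, of 8 peaks, between 43.6 and 73.3 kb, and the third, of 15 peaks, between 93.6 and 132 kb, up to the far end of the gene. The 15-peak group and the second group each spanned 6 control H3K27ac peaks, whereas the first spanned 2 and reached into a stretch of 30.6 kb, from 12.1 to 42.7 kb, with no control peak and 6 crotonate-only peaks. Of the 31, 9 lay within 1 kb of a control peak, and the median gap to a control peak was 2.99 kb. The last 20% of the gene held 12 crotonate-only peaks, no control-only peak and 2 shared crotonate peaks. The noncoding gene Gm11201, at 112 to 123 kb, overlapped 4 crotonate-only peaks. With equal numbers of peaks Ksr1 had 27 crotonate-only peaks and 12.5 kb more covered length after crotonate, and with the stronger 50% of each list 6 and 5.05 kb.

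Xylt1 (chr7:117380979-117667630, 287 kb) encodes a xylosyltransferase that starts glycosaminoglycan chains on proteoglycans. It held 57 control and 76 crotonate peaks, of which 16 and 38 were unshared. H3K27ac covered 68.3 kb in control and 76.5 kb after crotonate, or 23.8% and 26.7% of the gene. Its crotonate-only peaks lay close to control ones, with 19 of 38 within 1 kb of a control peak and a median gap of 1.01 kb. The largest group held 10 crotonate-only peaks over 49.96 kb, at 117 to 166 kb, among 10 control peaks. The highest fold of a crotonate-only peak was 5.16, at chr7:117448118-117448596. A control-only peak of 6.57-fold enrichment at chr7:117418184-117419659 was stronger than any crotonate-only peak of the gene, and a control-only H3K9cr peak of 3.25-fold lay within it. With equal numbers of peaks, Xylt1 had 22 crotonate-only and 20 control-only peaks, and the difference in covered length was -0.196 kb, whereas with the stronger 50% of each list it was 12.6 kb.

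Nav2 (chr7:48959063-49610090, 651 kb) encodes a neuron navigator protein, a cytoskeleton-associated protein with a part in neurite outgrowth. It held 54 control and 76 crotonate peaks, of which 13 and 36 were unshared, and the covered length was nearly the same at 63.6 and 65.5 kb. The crotonate-only peaks gathered at 217 to 247 kb, where 8 lay within 30.3 kb, before the inner start site at 287 kb, and in the last 20% of the gene, which held 11. Between them lay 79.0 kb without a control peak, at 314 to 393 kb, with 6 crotonate-only peaks that covered 2.27 kb. The strongest shared peak, of 39.9-fold enrichment in control and 36.7-fold after crotonate, was at 161 kb, beside the lower end of the noncoding gene 9130015G15Rik and with H3K9cr and H3K4me3. With equal numbers of peaks Nav2 had 23 crotonate-only peaks and a difference in covered length of -4.53 kb.

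Dock1 (chr7:134670687-135173647, 503 kb) encodes an activator of the small GTPase Rac with roles in cell migration and engulfment. It held 22 control and 49 crotonate peaks, with 3 control-only and 30 crotonate-only, and a covered length of 22.9 and 28.98 kb. Only 1 of the 30 lay within 1 kb of a control peak, and the median gap was 12.3 kb. Of the 30, 9 lay in 2 groups between 25.9 and 59.2 kb. Another 6 of the 30 overlapped Insyn2a, a protein-coding gene at 211 to 268 kb, so they cannot be assigned to Dock1 alone. Further on, the 150 kb from 268 to 418 kb had no control H3K27ac peak and 6 crotonate-only peaks. The Dock1 peaks were the weakest of the 6 genes, with a median fold of 3.26 and none of 5 or more. With equal numbers of peaks only 13 of them were left as crotonate-only and the difference in covered length was -0.123 kb.

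Npas3 (chr12:53248026-54072173, 824 kb) encodes a bHLH-PAS transcription factor of the developing brain. It was the longest of the 6, with the most H3K27ac peaks and the greatest covered length, though Xylt1 and Ksr1 had more peaks per 100 kb and a larger covered share. It had the most control peaks and the most control-only peaks of the 1594 genes. The control list held 107 peaks and the crotonate list 125, with 43 control-only and 45 crotonate-only peaks, or 5.22 and 5.46 per 100 kb. The covered length was 141 kb in control and 121 kb after crotonate, rank 1592 of 1594 by the difference. The 64 shared control peaks met 80 crotonate peaks, and 14 of the control peaks (21.9%) met at least 2. This share was 14.1% over the 6 genes and 8.93% in all protein-coding genes. Of the 6, only Csmd2 had a higher share, 28.6% of 7 peaks. The widest control peak, 12031 bp at chr12:53289466-53301496 (41 to 53 kb from the marked end), met 6 crotonate peaks that covered 10176 bp of it, with a highest fold of 47.0 in control and 42.7 after crotonate. Unlike the other 5 genes, Npas3 had more control-only than crotonate-only peaks with equal numbers of peaks in both lists, with 50 against 32. At a -log10 q of 3 or more, control-only peaks outnumbered crotonate-only ones by 1.

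The crotonate-only peaks were low and narrow in every gene. Their fold enrichment ran from 2.45 to 7.07 with a median of 3.53, and their median width was 334 bp. Over all crotonate-only peaks in protein-coding genes these medians were the same, 3.53 and 334 bp. Of the 218, 8 reached a fold of 5 and none reached 10, against 90 and 30 of the 205 shared crotonate peaks, whose median fold was 4.62 and whose median width was 868 bp. The control-only peaks were alike in strength, with a median fold of 3.41 and a median width of 381.5 bp. The median -log10 q of the crotonate-only peaks put them at the 22nd percentile of their list (22.4). With the stronger 50% of each list set against the full other list, 15 of the 218 crotonate-only peaks were left and 1 of the 84 control-only ones. The lowest background implied by pileup and fold was 3.11 in the control H3K27ac list and 2.68 in the crotonate one, and 162 of the 218 peaks sat at that floor. This was much the same elsewhere, with 9701 of 13496 crotonate-only peaks in all protein-coding genes and 41739 of 59868 peaks of the whole list, and 124 of the 205 shared peaks of the 6 genes. A lower floor lets a peak of the same height reach a higher fold, and its part in the counts was not tested.

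**Figure D3:**
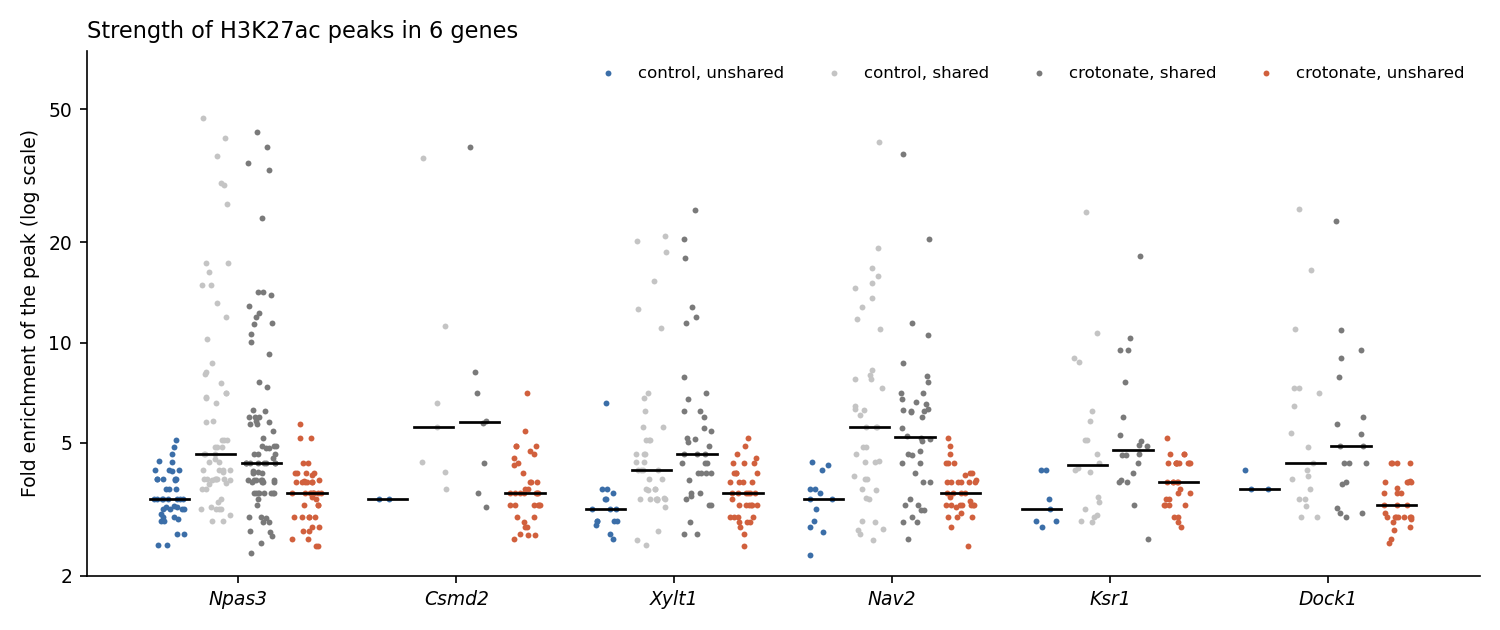
Fold enrichment of each H3K27ac peak in the 6 genes on a log scale, by list and class, with horizontal jitter. Black bars are medians. The crotonate-only peaks lie between 2.45 and 7.07 in all 6 genes, while shared peaks reach 47.0.

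The shared sites themselves can be followed in both lists. For each of the 192 shared control H3K27ac peaks of the 6 genes, the strongest crotonate peak that overlapped it had a median fold of 1.04 times the control fold, and 46.9% were lower after crotonate. Over the shared peaks of all protein-coding genes the median was 0.866 and 67.1% were lower. The shared control peaks of the 6 genes were weaker to begin with, with a median fold of 4.62 against 9.01, and whether this bears on the ratio was not tested. By gene the median ratio was highest in Xylt1, at 1.13, and lowest in Csmd2, at 0.882 over 7 peaks.

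Along the genes, the crotonate-only peaks showed no preference for the marked end. Counted in 5 equal parts of each gene from the marked end and summed over the 6, there were 40, 41, 51, 37 and 49. The control-only peaks numbered 25, 15, 10, 20 and 14, and the shared crotonate peaks 56, 37, 33, 44 and 35. The genes differed among themselves. In Ksr1 and Nav2 the last of the 5 was the fullest, with 12 and 11, in Dock1 it was the first, with 11, and in Csmd2 the middle, with 12.

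Joined at up to 10 kb, the 218 crotonate-only peaks formed 92 groups, of which 24 held 3 or more peaks. These 24 held 124 peaks (56.9%), and 42 peaks stood alone. The share in groups of 3 or more was 33.3% for the 84 control-only and 80.0% for the 205 shared crotonate peaks, and it depends on how many peaks of a class a gene holds. At a joining distance of 5 kb, 76 of the 218 were in such groups, and at 25 kb 190 were. Each of the 8 groups of 3 or more in Csmd2 and Dock1 spanned 0 control H3K27ac peaks, and the largest of them held 6 peaks. Groups of 3 peaks at 653 to 658 kb in Npas3 and 104 to 107 kb in Xylt1 also spanned 0. In Nav2 those at 362 to 375 and 601 to 612 kb did as well. The groups of 8 or more peaks spanned 10 and 4 control peaks in Xylt1, 4 in Nav2, and 6, 6 and 2 in Ksr1. These are larger groups than any in Csmd2 or Dock1.

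The flanks of the genes, 200 kb on each side, held few such peaks. In the 12 flanks together 21 of 97 crotonate H3K27ac peaks (21.6%) were crotonate-only, or 0.875 per 100 kb, against 7.32 per 100 kb in the genes. Nav2 had none in either flank. The densest flanks were that before the marked end of Dock1 and that past the far end of Csmd2, each with 5, or 2.50 per 100 kb. Control peaks were also sparser in the flanks, with 3.58 per 100 kb against 9.26 in the genes. The choice of genes fixes this contrast in part.

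**Figure D4:**
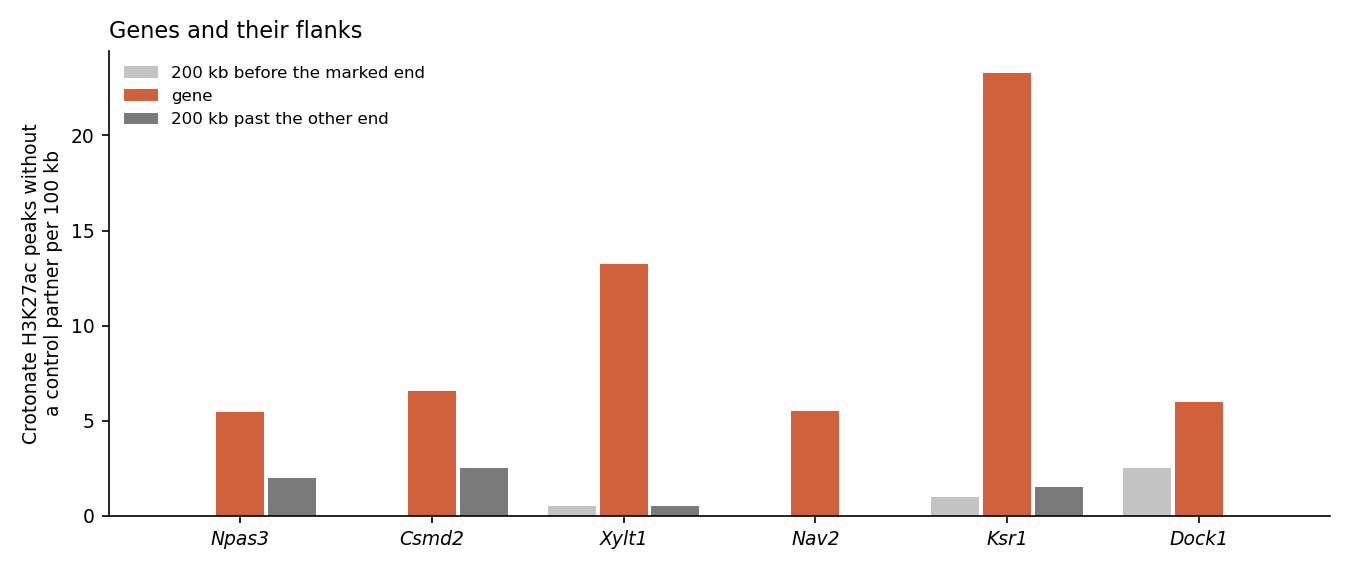
Crotonate-only H3K27ac peaks per 100 kb in each gene and in the 200 kb on either side. The value is higher in each of the 6 genes, 5.46 to 23.3, than in its flanks, 0 to 2.50.

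The marks that played no part in the choice were next mapped over the same genes. H3K4me3 gave 12 control and 11 crotonate peaks in the 6 genes, all shared but 1. None of the 11 crotonate peaks was crotonate-only and 1 of the 12 control peaks was control-only, against 4.97% and 1.55% in all protein-coding genes and 6.88% and 2.81% over the whole lists. The length under H3K4me3 was higher after crotonate in all 6 genes, by 0.001 kb in Xylt1 to 0.339 kb in Nav2, as it was in 71.8% of the other genes of like length with a peak, of which 9.75% had more crotonate-only than control-only H3K4me3 peaks. The control-only peak was a weak one (3.83-fold) at 50.6 kb in Npas3, at the lower end of the noncoding gene 1700030L22Rik. At the marked ends the fold was lower after crotonate in all 6 genes, for example 215 and 178 in Npas3 and 124 and 104 in Dock1, with ratios of 0.828 to 0.914. The median ratio over shared control H3K4me3 peaks in all protein-coding genes was 0.929, and 62.6% of them were lower after crotonate. Inside the genes H3K4me3 was found at the inner start site of Nav2 (57.4-fold in control, 62.5-fold after crotonate), at 161 and 564 kb in Nav2, at 44.8 kb in Npas3 and at 267 kb in Dock1. None of the 218 crotonate-only H3K27ac peaks met an H3K4me3 peak of either list, which allows a share of up to 1.38%. Over all crotonate-only H3K27ac peaks in protein-coding genes the share was also small, 2.55% for control and 2.85% for crotonate H3K4me3.

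H3K9cr was lower at the same ends by a wider margin. Its fold was 217 in control and 119 after crotonate in Npas3, 128 and 81.1 in Csmd2, 93.3 and 68.5 in Xylt1, 77.1 and 34.96 in Nav2, 154 and 80.4 in Ksr1, and 143 and 77.5 in Dock1. The ratios were 0.453 to 0.734. Over all 63 shared control H3K9cr peaks of the genes the median ratio was 0.672, close to the 0.660 over all protein-coding genes. Of the 63, 79.4% were lower after crotonate, against 85.5% over all protein-coding genes, so a lower H3K9cr fold was common everywhere. The ratio at the marked ends of other genes was not computed. H3K27ac at the marked ends was lower after crotonate in 5 of the 6 and slightly higher in Csmd2, with 35.8 and 38.6.

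Over the whole gene bodies there were 86 H3K9cr peaks in control and 82 after crotonate. Of these 23 (26.7%, 17.8 to 37.4) were control-only and 16 (19.5%, 11.6 to 29.7) crotonate-only. In all protein-coding genes the shares were 11.3% and 13.9%, and over the whole lists 15.1% and 15.3%. The sets are unlike in strength: shared control H3K9cr peaks had a median fold of 9.71 here and 41.8 in all protein-coding genes. Whether this bears on the shares was not tested. All 6 genes had H3K9cr, as did 94.3% of the other genes of like length. The H3K9cr length was lower after crotonate in 5 of the 6 genes, as it was in 62.6% of genes of like length with an H3K9cr peak, and it was 105 kb in control and 93.4 kb after crotonate in all. Nav2 had the most control-only H3K9cr peaks, 8, and a difference in H3K9cr length of -6.41 kb. The strongest of them, of 7.38-fold enrichment at chr7:49107894-49108281, lay 149 kb into the gene on a site where H3K27ac was called in both lists. Xylt1 had 6 control-only and 2 crotonate-only H3K9cr peaks, and Npas3 had 5 and 4. Csmd2, with the largest addition of H3K27ac length, had 3 H3K9cr peaks in control and 2 after crotonate and no crotonate-only peak. Ksr1 alone had more H3K9cr length after crotonate, 6.67 and 7.51 kb, with 1 control-only and 4 crotonate-only peaks.

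At the crotonate-only H3K27ac peaks other marks were nearly absent. Of the 218, 216 (99.1%, 96.7 to 99.9) met no crotonate peak of the other 3 marks, against 92.4% of the 13496 crotonate-only H3K27ac peaks in all protein-coding genes. The other 2 met a crotonate H3K9cr peak. In Ksr1 this was its strongest crotonate-only peak, at chr11:79116540-79117540 with 5.16-fold enrichment, over a crotonate-only H3K9cr peak of 4.04-fold at chr11:79116813-79117376, in a stretch of 30.6 kb without control H3K27ac. In Nav2 it was a peak of 3.44-fold enrichment 389 kb into the gene, over a crotonate-only H3K9cr peak of 2.15-fold. None met a control H3K9cr peak, and with a distance of up to 1 kb allowed the share next to another mark was 3.21%. The shared H3K27ac peaks of the same genes met H3K9cr more often, in 37.0% of the 192 control peaks. Of the shared control peaks in all protein-coding genes 69.8% did, but the 2 sets are unlike. Control H3K4me3 met 6.77% of the 192 and 46.0% of those in all protein-coding genes, and the median folds were 4.62 and 9.01. Whether this accounts for the H3K9cr difference was not tested. Of the 84 control-only H3K27ac peaks, 2 (2.38%) met a control H3K9cr peak and 5 (5.95%) a crotonate H3K9cr peak. Over the control-only peaks in all protein-coding genes these shares were 15.7% and 13.9%. Of the 84, 82 (97.6%) met no control peak of the other 3 marks, against 83.3% in all protein-coding genes. Few other marks were thus not particular to the crotonate-only peaks. These shares were not computed over genes of like length, so whether gene length bears on them was not tested.

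Read from the side of H3K9cr, most unshared peaks of these genes met an H3K27ac peak of either list. The genes were chosen for many crotonate-only H3K27ac peaks, and the same shares over all protein-coding genes were not computed. Whether the overlap is higher here than in other genes was therefore not tested. Of the 23 control-only H3K9cr peaks, 22 met a shared control H3K27ac peak and 1 a control-only peak, and all 23 met an H3K27ac peak of either list. Of the 16 crotonate-only H3K9cr peaks, 14 met an H3K27ac peak of either list. Of these 16, 8 met a shared control peak, 4 a control-only and 2 a crotonate-only H3K27ac peak. The 4 on control-only H3K27ac were in Nav2, with 2, and in Ksr1 and Xylt1, with 1 each.

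H3K27me3 was nearly missing from the genes. It had no peak in Npas3, Csmd2, Xylt1, Nav2 or Ksr1 in either list, whereas 59.6% of the 1588 genes of like length had at least 1. This was not particular to the 6. Of the genes next by the number of crotonate-only H3K27ac peaks, Msi2, Zmiz1 and Trio also had none in either list. Cdh4 had 2 in each list, and Oxr1 and Rptor had 1 each in control only. Dock1 had 1 peak in each list, both shared, against 25.6% control-only and 36.2% crotonate-only H3K27me3 peaks in all protein-coding genes. Its folds were 4.91 in control and 3.27 after crotonate, and it lay at 266 kb, beside the upper end of Insyn2a, a protein-coding gene within Dock1. H3K4me3 (49.1- and 35.6-fold) and H3K9cr (30.8- and 14.5-fold) met the same peak in both lists, and H3K27ac met it in control only. Just outside 2 other genes H3K27me3 was called in 1 list each. At Xylt1 a control peak of 4.07-fold ended 0.62 kb before the marked end, under the edge of the H3K4me3 peak, and the nearest crotonate peak was 448 kb from the gene. At Nav2 a crotonate peak of 3.27-fold lay 1.42 kb before the marked end, and the nearest control peak was 6.66 kb past the far end.

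Long genes can hold more peaks of any kind, so the 6 were set beside the 1588 other protein-coding genes between 133 and 824 kb. These had a median of 1 crotonate-only H3K27ac peak, with a 90th percentile of 8, and 1085 of them had any. Per 100 kb their median was 0.581 and their 90th percentile 3.21. By this density Ksr1 ranked 1 and Xylt1 3, but Csmd2 51, Dock1 67, Nav2 81 and Npas3 84. Of these genes 93.3% had an H3K27ac peak, and among those 41% had more crotonate-only than control-only peaks, as all 6 genes chosen had. By the difference in covered length Csmd2 ranked 1, Ksr1 2, Xylt1 4, Dock1 16 and Nav2 89.

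**Figure D5:**
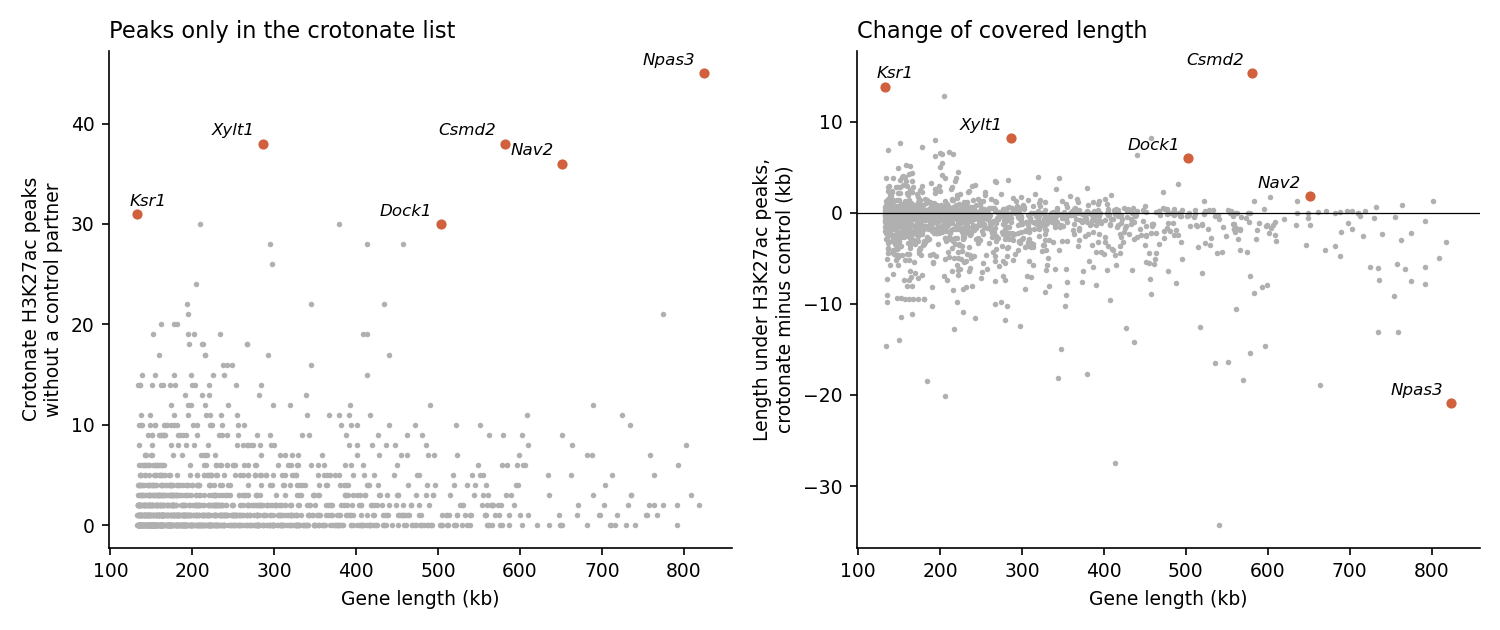
Crotonate-only H3K27ac peaks (left) and difference in the length under H3K27ac peaks, crotonate minus control, in kb (right), against gene length in kb for 1594 protein-coding genes. The 6 genes are orange, and on the right they spread from the highest value, Csmd2, to nearly the lowest, Npas3.

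The genes just outside the choice mostly had less or nearly equal covered length after crotonate. Msi2, for an RNA-binding protein of neural progenitors, had 30 crotonate-only and 27 control-only peaks and a length of 161 kb in control and 144 kb after crotonate. Zmiz1, for a transcriptional coregulator, had 30 and 14 peaks and 50.3 and 42.9 kb. Trio, for a guanine nucleotide exchange factor, had 28 and 8 peaks and 56.0 and 51.9 kb. Oxr1 had 28 and 13 with 41.4 and 41.3 kb, and Rptor, a subunit of the mTOR complex, 26 and 12 with 39.6 and 39.9 kb. Cdh4, for a cadherin, had 28 and 7 peaks and a higher length after crotonate, 19.8 and 28.0 kb. Zmiz1 also had 13 crotonate-only H3K9cr peaks, more than any of the 6 genes chosen.

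The paralogs of the 6 genes, 19 of them, were counted in the same way. As the 6 were chosen for their high counts, lower counts in other genes follow from the choice. Of the 19, 11 had any crotonate-only H3K27ac peak, 6 had more crotonate-only than control-only peaks, 6 had fewer and 7 had equal numbers. The median was 1, the highest 14, and the H3K27ac length was higher after crotonate in 4 and lower in 14. Among the 1588 other genes of like length, 68.3% had any crotonate-only H3K27ac peak, with a median of 1. Of those with an H3K27ac peak, 41% had more crotonate-only than control-only peaks and 69.4% had less covered length. Some paralogs are shorter or longer than these genes. Nav1 had 14 crotonate-only and 5 control-only peaks in 254 kb, with 41.8 kb covered in control and 40.5 kb after crotonate. Among the others named here, Dock10 had 5 and 5, Dock4 3 and 4, Nav3 2 and 3, and Csmd3 and Npas2 1 crotonate-only peak each. Csmd1, 1643 kb long, had none, with 6 control-only peaks and 8.60 kb in control against 2.47 kb after crotonate. Ksr2, Npas1, Npas4 and Xylt2 also had none. H3K27me3 was called in 13 of the 19 in at least 1 list, beside 59.6% of the other genes of like length.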

How the data were processed

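Native chromatin immunoprecipitation libraries of 4 histone marks and input (10 libraries in all, 1 per mark and treatment) gave 8 deposited peak tables. Reads were aligned to GRCm38 with Bowtie2 2.4.1 and peaks called with MACS2 2.2.7.1, per the submitters' processing notes, with calling settings not given in the sources used here. Per the file headers, each peak has a position, a pileup (signal height at the summit), a fold enrichment (ratio to the local background) and a -log10 p and -log10 q, all as the authors deposited them. These are peak-level values within 1 list, the read depth is unknown, and a deeper or cleaner library can give more peaks.

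Genes were taken from RefSeq (GRCm38.p6). A peak belonged to a gene when it overlapped it by 1 bp or more, and was shared when it overlapped a peak of the same mark in the other list by 1 bp or more. Intervals are exact Clopper-Pearson 95% intervals and cover counting error only. A count of 0 was taken to allow 3 counts. With 1 library per group no test was run, no p-value is given and no library could be left out. Counts and lengths were computed with Python 3.11.15, pandas 2.3.3, numpy 2.4.6 and scipy 1.17.1, and the overlap steps were tested on simulated intervals.

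Named were the 6 genes, their paralogs (some are counted only, and 1 result is not reported here), the 6 next genes by number of crotonate-only H3K27ac peaks, genes that overlap a member, and, for each gene, the strongest H3K27ac peaks and the strongest unshared peaks of other marks. Further peaks (for example those in groups or at an inner start site), and the Zmiz1 H3K9cr count, were chosen after their values were seen. The members and lists were chosen with earlier results of these data known. Alternatives changed the overlap rule, the length of the lists, the gene limits and the joining distance. Peak sequences were not analysed here.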

Additional observations from a re-analysis of the deposited data

How the results depend on the processing

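No paired analysis was possible because each mark had 1 library per treatment, and for the same reason no library could be left out. The results that depend most on the processing are the counts of unshared peaks, which rest on weak peaks. The 218 crotonate-only H3K27ac peaks became 53 with the stronger 50% of each list, 15 with the stronger 50% set against the full other list and 133 at a -log10 q of 3 or more, and the 84 control-only ones 9, 1 and 53. With equal numbers of peaks in both lists there were 146 crotonate-only and 101 control-only H3K27ac peaks. With peaks within 1 kb counted as shared there were 164 and 46, and with an overlap of 50% of both required 305 and 158. The 23 control-only H3K9cr peaks became 2 and 0, and the 16 crotonate-only ones 3 and 0, with the stronger 50% of each list and against the full other list, and 28 of the latter with the 50% overlap. For H3K4me3 the 1 control-only peak became 0 and 0, and 2 with the 50% overlap, which also gave 1 crotonate-only peak. For H3K27me3, 1 control-only peak appeared with equal numbers of peaks and 1 with the stronger 50%.

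The difference in H3K27ac length over the 6 genes (24.4 kb) was -10.73 kb with equal numbers and 1.934 kb with the stronger 50%, and that of H3K9cr -1.394 kb with the stronger 50%. By gene, the H3K27ac difference turned to -0.123 and -0.016 kb in Dock1 and to -4.526 and -2.504 kb in Nav2 under these settings, and to -0.196 kb in Xylt1 with equal numbers, where the stronger 50% gave 12.63 kb. With the stronger 50% it was 2.665 kb in Csmd2 and 5.051 kb in Ksr1, against 15.3 and 13.9 kb. With the stronger 50% the H3K9cr difference turned to 0.515 kb in Dock1, 0.4 kb in Nav2, 0.397 kb in Xylt1 and -0.007 kb in Ksr1. In Npas3 crotonate-only minus control-only H3K27ac peaks were -18 with equal numbers and -1 at a -log10 q of 3 or more. The 92 groups became 39 when joined at 25 kb, and 76 and 190 peaks lay in groups of 3 or more at 5 and 25 kb. Shorter lists hold fewer peaks by construction, and the cause of the reversals was not tested. The filter on -log10 q and the count without peaks in other annotated genes were added after seeing the data. That count was 191 of the 218 crotonate-only H3K27ac peaks.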

Other observations

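Many crotonate-only H3K27ac peaks were not restricted to very long genes. Of all protein-coding genes, 59 (0.270%) held 15 or more. The genes named here were chosen after their values were seen. Eps15l1, for an endocytosis protein, is 80.6 kb long and had the highest density among those 59. It held 2 H3K27ac peaks in control, both shared, and 22 after crotonate, of which 20 were crotonate-only, and its covered length was 2.00 and 12.7 kb, the same direction as in Csmd2. Smarca4, for the BRG1 ATPase of chromatin remodelling complexes, held 3 peaks in control and 18 after crotonate, with 15 crotonate-only and 0 control-only. Stk24, for a protein kinase, held 2 and 17, with 15 and 0, and Kif1a, for a motor of axonal transport, 5 and 19, with 16 and 1.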
